A study of Drosophila melanogaster with 14 samples.

Results

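Lint-1 knockdown (Lint-1 KD) was compared directly with Lint-O knockdown (Lint-O KD) in cultured ovarian somatic cells of Drosophila melanogaster, a line derived from the somatic cells of the fly ovary. The members are the 4 RNA libraries that the labels assign to these treatments, 2 for each, out of 14 samples in the series. The question was which transcripts separate the losses of these L(3)mbt interactors. The other RNA libraries were 2 after EGFP knockdown (EGFP KD), in which RNAi is aimed at a sequence the fly genome lacks and which is the control, and 2 after L(3)mbt knockdown (L(3)mbt KD). They serve here as reference levels. All 4 groups carried 48 hours of RNAi, in the same medium with fly extract and fetal bovine serum, and no further genotype or agent is labelled. A knockdown lowers the transcript without removing it. The 6 ChIP and input samples were not analysed here.

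L(3)mbt binds chromatin, carries malignant brain tumour repeats and keeps germline genes silent in somatic tissue. Lint-1 was identified as its partner in the LINT complex, which also contains the corepressor CoREST, and Lint-O as an interactor in ovarian somatic cells. Among the genes that L(3)mbt silences are factors of the piRNA pathway, in which small RNAs bound to PIWI proteins silence transposons. Follicle-derived cells normally run only a somatic form of that pathway, built on Piwi, while germ cells add an amplification loop built on Aub and AGO3 with Vasa and Tudor-domain proteins.

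Polyadenylated RNA was sequenced, and 18293791 to 20978039 reads per library lay on genes. Levels are read counts scaled to library size on genes and by TMM (CPM), and a count of 0 allows up to 0.143 to 0.164 CPM, depending on the library. Because n = 2 libraries per group, both values are given for the main genes. Nothing in the labels says that a group's libraries are from separate cultures, and p-values therefore reflect the spread between these samples alone, which may be technical. The summed level of 6 follicle and ovarian somatic markers (tj, Fas3, piwi, fs(1)Yb, eya, zfh1) was 1157 to 1352 CPM in Lint-1 KD and 1124 to 1385 CPM in Lint-O KD, within the 1108 to 1480 CPM of all libraries. Of 5 hemocyte markers Hml, NimC1 and He were under 1 CPM in every library, while srp reached 2.94 to 9.46 CPM and Pxn 14.7 to 27.1 CPM. The hemocyte markers summed to 26.4 to 33.7 CPM in Lint-1 KD and 21.7 to 22.1 CPM in Lint-O KD, and neither srp nor Pxn was called. Of 4 neuron markers nSyb, brp and Syt1 were under 1 CPM everywhere and elav was at 16.5 to 31.1 CPM. Of 4 muscle markers up and Tm2 were under 1 CPM everywhere, while Mef2 was at 3.38 to 6.08 CPM and Mhc at 1.83 to 4.46 CPM. All 4 fat body markers (Lsp1alpha, Lsp1beta, Fbp1, Lsp2) were under 1 CPM in every library. The part of these markers in the results was not tested. The germ cell markers vas, nos, bam and aub summed to 11.7 to 15.1 CPM in EGFP KD, 185.1 to 188.1 CPM in L(3)mbt KD, 66.8 to 73.2 CPM in Lint-1 KD and 107.3 to 131.7 CPM in Lint-O KD. In bulk RNA, fewer cells of a type and less RNA per cell cannot be told apart.

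Each RNAi target was lowest in the libraries that carry its label. Lint-1 (dm6, chromosome X, 11149323 to 11152592) stood at 9.81 and 12.2 CPM in the Lint-1 KD libraries and at 77.5 and 78.01 CPM in the Lint-O KD libraries. Its EGFP KD levels were 57.6 and 51.2 CPM, so the groups did not overlap (log2 fold change -2.83 ± 0.166 SE, adjusted p = 0.000296 in edgeR for Lint-1 KD minus Lint-O KD). Lint-O, listed under the older symbol CG2662 (chromosome X, 2698701 to 2701033), stood at 1.15 and 1.99 CPM in Lint-O KD, against 23.05 and 20.4 CPM in Lint-1 KD and 19.9 and 18.04 CPM in EGFP KD (log2 fold change 3.78 ± 0.263 SE, adjusted p = 0.000442 in edgeR). Both calls held without any single one of the 4 compared libraries. The transcript of l(3)mbt (chromosome 3R, 27266326 to 27273273) was at 197 and 196 CPM in Lint-1 KD and 221 and 216 CPM in Lint-O KD, where the values of Lint-O KD lay above those of Lint-1 KD without passing the test (log2 fold change -0.15 ± 0.1005 SE, adjusted p = 0.462 in edgeR). It was at 187 and 186 CPM in EGFP KD and 103 and 95.9 CPM in L(3)mbt KD. Of 16 tested genes of L(3)mbt partners and of the LINT and dREAM repressor complexes, the 2 targets were called and 14 were not. Among all tested genes 1.18% were called in either direction, so the lack of a call in these 14 is no result about the complexes. The median log2 fold change of the 16 was 0.075, against -0.004 over all tested genes. CoRest, for the LINT corepressor, was at 172 ± 13.7 CPM in Lint-1 KD and 164 ± 12.6 CPM in Lint-O KD (mean ± SD, n = 2), which differed by 0.07 ± 0.112 SE (adjusted p = 0.7905 in edgeR) on the log2 scale. Lint-1 overlaps rtv and l(3)mbt overlaps CG14260. The strand setting of the counting was not given in the sources used here. The reads of overlapping genes, here and in every gene below with a named overlap, therefore cannot be told apart.

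**Figure D1:**
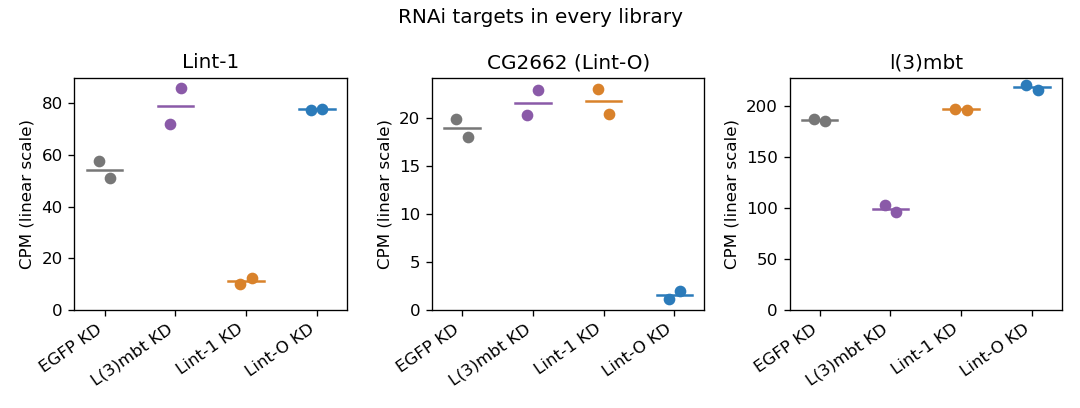
Levels of the 3 RNAi targets in every library on linear axes (CPM). Each point is a library and each bar a group mean (n = 2). Lint-1 is lowest in Lint-1 KD (9.81 and 12.2 CPM), CG2662 (Lint-O) in Lint-O KD (1.15 and 1.99 CPM) and l(3)mbt in L(3)mbt KD.

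In the edgeR fit the direct comparison called more genes higher in Lint-1 KD than in Lint-O KD. Of 8244 tested genes, 97 (1.18%) passed an adjusted p of 0.05 in edgeR's quasi-likelihood test with Benjamini-Hochberg adjustment. They comprised 75 higher in Lint-1 KD (0.91%) and 22 higher in Lint-O KD (0.267%), targets included, and 60 and 16 of them differed at least 2-fold. Against EGFP KD the same fit called 9.66% of the genes in Lint-1 KD, 693 higher (8.41%) and 103 lower (1.25%). In Lint-O KD it called 5.46%, 429 higher (5.2%) and 21 lower (0.255%). These comparisons share libraries with the direct one and are given only as context. In all 97 genes the compared groups did not overlap. Over all tested genes, 27.3% had both Lint-1 KD libraries above both Lint-O KD libraries and 25.6% the opposite, so with 2 libraries a group a lack of overlap alone is common. Counts of calls depended on the test and on single libraries. The DESeq2 Wald test called 200 genes higher in Lint-1 KD and 94 higher in Lint-O KD, a fit of the 4 compared libraries alone 237 and 174, and a fit with no low-count filter 244 and 146. In a fit with crossed replicate numbers as a block, added after seeing the data, more genes were higher in Lint-O KD (961) than in Lint-1 KD (788). Of the 97, 24 stayed called without Lint-1 KD 1, 15 without Lint-1 KD 2, 5 without Lint-O KD 1 and 9 without Lint-O KD 2, and all 97 kept their sign in each of these fits. Lint-1, CG2662, vas, hebe and KFase were called in all 4, while 56 of the 75 and 16 of the 22 were called in none.

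**Figure D2:**
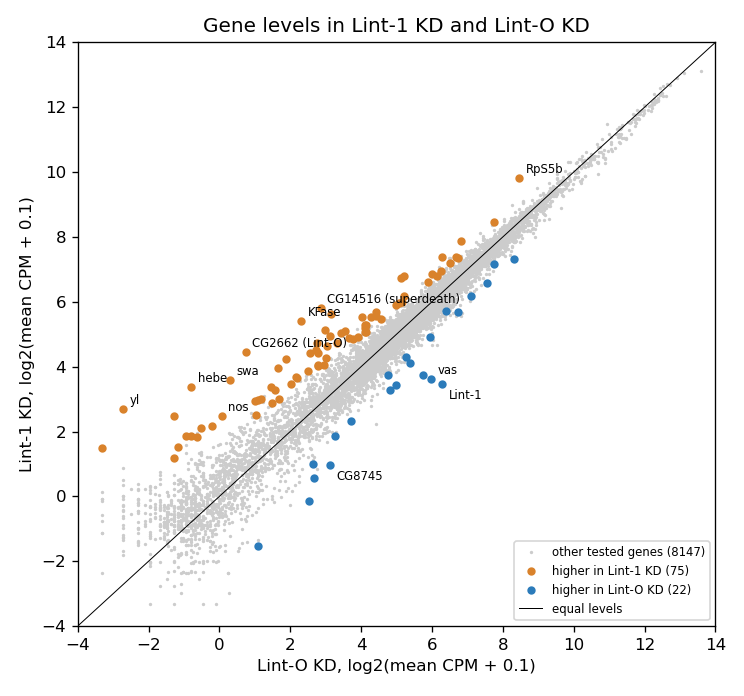
Mean level of each tested gene in Lint-O KD (x axis) and Lint-1 KD (y axis), both as log2(mean CPM + 0.1). Orange points are the 75 genes called higher in Lint-1 KD, blue points the 22 called higher in Lint-O KD and grey points the other 8147, with the line marking equal levels. Several orange points such as hebe, swa and yl lie at low Lint-O KD levels.

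The L(3)mbt KD and EGFP KD libraries are not in the direct contrast, so their difference is a separate measure on the same genes, although the same fit estimates the spread for both. Of the 75 genes higher in Lint-1 KD, 59 (78.7%) were called higher in L(3)mbt KD than in EGFP KD, none was called lower and 16 were not called. Their median log2 fold change in L(3)mbt KD was 1.94. Of the 22 genes higher in Lint-O KD, 10 (45.5%) were called higher, 1 lower (Cyp6d5) and 11 not, with a median of 0.60. Over all tested genes 9.58% were called higher and 1.31% lower, with a median of -0.01. Leaving out the RNAi targets gave 59 of 74 and 10 of 21. The mean L(3)mbt KD level lay nearer to Lint-1 KD than to Lint-O KD, on the scale of log2(CPM + 0.1), for 66 of the 75 (88%) and 5 of the 22 (22.7%), against 61.6% of all tested genes. Unlike the difference above, this measure also uses the levels of the compared libraries, by which the genes were chosen. It is therefore not a separate measure.

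**Figure D3:**
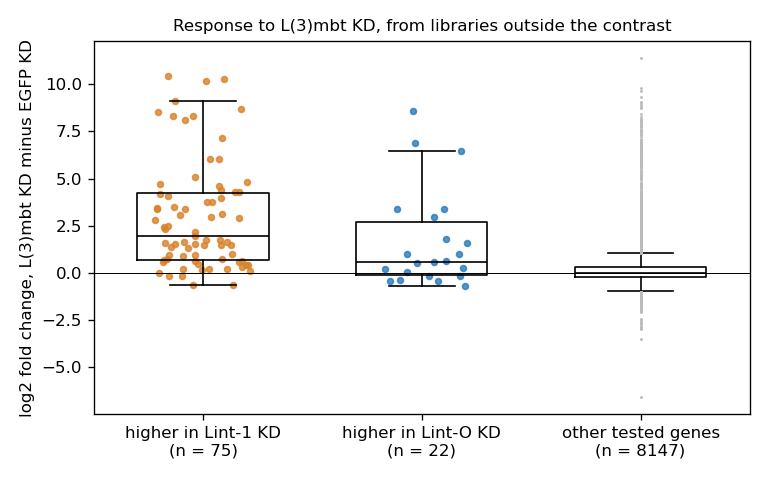
Log2 fold change of L(3)mbt KD minus EGFP KD for the 75 genes higher in Lint-1 KD, the 22 higher in Lint-O KD and the 8147 other tested genes. Coloured points are genes, boxes span the quartiles with the median as a black line, whiskers reach to 1.5 interquartile ranges and grey dots in the last box lie beyond them. Most of the 75 lie above 0 (median 1.94), while the 22 spread on both sides (median 0.60).

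The called genes were also described by their control level, span and position. The EGFP KD mean was under 1 CPM for 25 of the 75 (33.3%) and 5 of the 22 (22.7%), against 12.4% of all tested genes. It lay below both knockdown means for 54 of the 75 (72%), between them for 21 (28%) and above both for 0. For the 22 these counts were 8 (36.4%), 12 (54.5%) and 2 (9.09%). The shares over all tested genes were 32.1%, 33% and 34.9% in the same order. This position also uses the levels of the compared libraries, by which the genes were chosen, so it is not a separate measure. The 75 had a median gene span of 4464 bases (73 with a position) and the 22 one of 2156 bases, against 2750 bases over 8154 tested genes with a position. Chromosome X held 19 of the 75 (25.3%, against 17.4% of tested genes), and chromosome 4 held 2 of the 22 (9.09%, against 0.97%), namely CG1674 and CG31997. The sole run of neighbouring tested genes called in the same direction was fs(1)N and CG11409 on chromosome X, both higher in Lint-1 KD. These are descriptions of the called genes, with no test.

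Among the largest differences were genes silent or nearly silent in the control that were high in Lint-1 KD and low in Lint-O KD. Among them hebe, swa, yl and dao form a list that earlier work on these same libraries had picked for weak levels without Lint-O, so their direction here is not independent evidence. The hebe transcript (chromosome 2R, 9828104 to 9836642) had no read in EGFP KD, 0.629 and 0.315 CPM in Lint-O KD and 10.3 and 10.4 CPM in Lint-1 KD (log2 fold change 4.44 ± 0.351 SE, adjusted p = 0.00148 in edgeR). Its L(3)mbt KD levels, 7.401 and 7.25 CPM, lay between those of the other knockdowns. The swa gene (swallow, chromosome X, 6363418 to 6365708) encodes a protein that anchors bicoid mRNA in the oocyte. It also had no read in EGFP KD and stood at 0.733 and 1.52 CPM in Lint-O KD, 11.95 and 12.2 CPM in Lint-1 KD and 8.75 and 9.36 CPM in L(3)mbt KD (log2 fold change 3.41 ± 0.338 SE, adjusted p = 0.00497 in edgeR). The yolk protein receptor gene yl (yolkless, chromosome X, 14193214 to 14199958) had 2 reads in Lint-O KD and 261 in Lint-1 KD. The scaled ratio was 122.6 (95% counting interval 33.59 to 1017, adjusted p = 0.00852 in edgeR). The Lint-1 KD libraries held 7.86 and 4.82 CPM and the L(3)mbt KD libraries 1.501 and 2.62 CPM. The dao transcript (down and out, chromosome 2L, 15248879 to 15254715) was at 0.105 and 0.524 CPM in Lint-O KD and 5.76 and 5.13 CPM in Lint-1 KD (log2 fold change 4.09 ± 0.711 SE, adjusted p = 0.0336 in edgeR), against 0.111 and 0 CPM in EGFP KD and 1.14 and 2.93 CPM in L(3)mbt KD. In all 4 genes both Lint-1 KD libraries lay above every other library. Of these calls hebe held without each compared library in turn, and swa was lost only without Lint-O KD 1 (edgeR adjusted p = 0.0702). The yl call was lost without Lint-1 KD 1 (0.0641), Lint-O KD 1 (0.101) or the other Lint-O KD library (0.121). The dao call was lost without any one of the 4 compared libraries (0.122 to 0.318). The size of change moved with the Lint-O KD libraries. Without Lint-O KD 1 or the other Lint-O KD library the log2 fold change of dao was 3.35 and 5.60, and that of swa 2.97 and 4.0. Both Lint-O KD reads of yl were in Lint-O KD 1. The yl gene holds mir-4917.

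Other large differences in the same direction were in genes that Lint-O KD raised less, or for CG8468 not to a level that passed the test. KFase (kynurenine formamidase, an enzyme of tryptophan breakdown, chromosome 2L, 6487342 to 6488756) stood at 41.6 and 42.3 CPM in Lint-1 KD and 4.4 and 5.24 CPM in Lint-O KD. Its levels were 2.49 and 1.98 CPM in EGFP KD and 20.9 and 27.8 CPM in L(3)mbt KD, and the direct difference was 3.12 ± 0.219 SE (adjusted p = 0.000442 in edgeR). CG14516 (superdeath) was at 54.2 and 58.5 CPM in Lint-1 KD and 6.23 and 8.02 CPM in Lint-O KD, against 0.111 and 0 CPM in the control (log2 fold change 2.98 ± 0.255 SE, adjusted p = 0.00128 in edgeR). CG11674 stood at 51.8 and 47.01 CPM and 8.59 and 9.07 CPM in the same order, against 0.111 and 0.104 CPM in the control (log2 fold change 2.48 ± 0.203 SE, adjusted p = 0.00104 in edgeR). Both genes were therefore called higher than the control in Lint-O KD as well (edgeR adjusted p = 7.76e-05 and 3.21e-05). CG8468 differed in that respect. Its 3.67 and 3.51 CPM in Lint-O KD lay between its 4.27 and 2.96 CPM in the control, and Lint-1 KD stood at 16.3 and 21.4 CPM (log2 fold change 2.39 ± 0.249 SE, adjusted p = 0.00375 in edgeR). Thus the level reached in Lint-O KD ran from the control's to well above it, with Lint-1 KD above both. The remaining members of the 12 largest differences in this direction were CG1648, Sas and nos. CG1648 was at 15.4 and 15.2 CPM in Lint-1 KD and 2.305 and 3.78 CPM in Lint-O KD (log2 fold change 2.33 ± 0.299 SE, adjusted p = 0.00884 in edgeR). Sas was at 37.6 and 31.7 CPM and 7.49 and 8.07 CPM (log2 fold change 2.15 ± 0.242 SE, adjusted p = 0.00538 in edgeR). KFase stayed called without each compared library in turn. CG14516 and CG11674 were lost only without Lint-O KD 1 (edgeR adjusted p = 0.065 and 0.0513), CG8468 and Sas without either Lint-O KD library (0.0993 to 0.136), and CG1648 and nos without any one of the 4 compared libraries (0.0641 to 0.324). KFase overlaps Daxx, CG14516 overlaps CG14511, CG11674 overlaps Prp16, CG8468 overlaps Opa1, and CG1648 overlaps lectin-46Ca and lectin-46Cb.

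**Figure D4:**
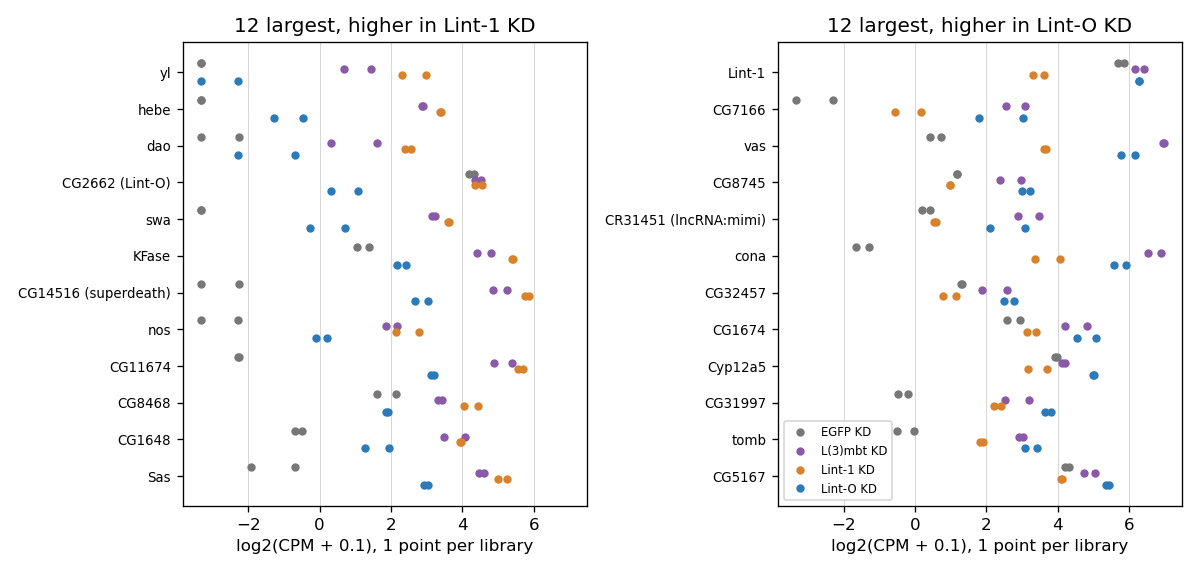
Levels in every library of the 12 genes with the largest differences in each direction, as log2(CPM + 0.1). They were chosen among called genes whose compared groups do not overlap and whose higher group averaged 5 CPM or more. Each point is a library. By that choice the orange points of Lint-1 KD lie right of the blue points of Lint-O KD in the left panel. In the right panel the order is the opposite, also by choice. vas and cona are highest in L(3)mbt KD.

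Among the genes higher in Lint-O KD were the germline genes vas and cona and the testis gene tomb. vas (vasa, chromosome 2L, 15061656 to 15074311), for the DEAD-box RNA helicase of germ plasm and of the perinuclear granules where piRNAs are amplified, stood at 12.1 and 12.5 CPM in Lint-1 KD and 54.4 and 71.9 CPM in Lint-O KD. The control held 1.55 and 1.25 CPM and L(3)mbt KD 122 and 125 CPM, so the 4 groups did not overlap and ran in the order EGFP KD, Lint-1 KD, Lint-O KD, L(3)mbt KD. The direct difference was -2.36 ± 0.1697 SE (adjusted p = 0.000442 in edgeR). cona (corona, chromosome 3R, 18385828 to 18386887), for a component of the central region of the synaptonemal complex that joins homologous chromosomes in meiosis, followed the same order. It was at 0.222 and 0.312 CPM in EGFP KD, 16.5 and 10.2 CPM in Lint-1 KD, 47.5 and 59.6 CPM in Lint-O KD and 118 and 92.99 CPM in L(3)mbt KD (log2 fold change -2.0 ± 0.241 SE, adjusted p = 0.007903 in edgeR). tomb (tombola, chromosome 2L, 5535861 to 5536758), for a subunit of the testis meiotic arrest complex, stood at 3.63 and 3.46 CPM in Lint-1 KD and 10.6 and 8.39 CPM in Lint-O KD (log2 fold change -1.42 ± 0.246 SE, adjusted p = 0.0336 in edgeR). Its L(3)mbt KD values, 7.505 and 8.13 CPM, lay just below those of Lint-O KD, and its control values were 0.6095 and 0.884 CPM. All 3 genes were also called higher in Lint-1 KD than in EGFP KD (edgeR adjusted p = 3.03e-05, 3.66e-05 and 0.00165). The vas call held without each compared library in turn. The cona call was lost without Lint-1 KD 2 (edgeR adjusted p = 0.0657), Lint-O KD 1 (0.0822) or the other Lint-O KD library (0.12), and the tomb call without any one of the 4 (0.125 to 0.305). vas overlaps solo and vig, cona overlaps Vha100-4 and tomb overlaps Cap-D3.

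Next come the 9 other genes higher in Lint-O KD that the naming rule gave, of which only CG31997 passed the test against the control in Lint-1 KD. CG8745, CG7166 and CR31451 (the long noncoding RNA mimi) form the matching list picked earlier from these libraries for weak levels without Lint-1, again no independent evidence. CG8745 (chromosome 3L, 13860027 to 13866905) stood at 7.86 and 9.28 CPM in Lint-O KD, 1.86 and 1.88 CPM in Lint-1 KD and 2.16 and 2.18 CPM in EGFP KD (log2 fold change -2.19 ± 0.286 SE, adjusted p = 0.00902 in edgeR). CG7166 was at 3.35 and 8.07 CPM in Lint-O KD and 1.02 and 0.576 CPM in Lint-1 KD (log2 fold change -2.81 ± 0.543 SE, adjusted p = 0.04904 in edgeR), and CR31451 at 4.19 and 8.44 CPM and 1.39 and 1.36 CPM (log2 fold change -2.19 ± 0.399 SE, adjusted p = 0.0395 in edgeR). Against EGFP KD none of the 3 passed the test in Lint-1 KD (edgeR adjusted p = 0.0552 for CG7166, the lowest). The Lint-O KD libraries of CG7166 and CR31451 lay far apart from each other, and the log2 fold change of CG7166 was -3.33 without Lint-O KD 1 and -2.07 without the other. In L(3)mbt KD the 3 genes stood at 7.71 and 5.09 CPM, 8.33 and 5.81 CPM and 7.25 and 11.1 CPM in that order, all called higher than the control. The chromosome 4 genes CG1674 and CG31997 were at 23.2 and 33.2 CPM and 12.4 and 13.95 CPM in Lint-O KD and at 8.78 and 10.5 CPM and 5.25 and 4.56 CPM in Lint-1 KD. Their direct log2 fold changes were -1.55 ± 0.272 SE (adjusted p = 0.0348 in edgeR) and -1.42 ± 0.268 SE (adjusted p = 0.0453 in edgeR). CG31997 was raised above the control in Lint-1 KD too (edgeR adjusted p = 0.000855). Cyp12a5, a mitochondrial cytochrome P450, stood at 32.1 and 31.4 CPM in Lint-O KD and 12.8 and 8.85 CPM in Lint-1 KD (log2 fold change -1.55 ± 0.201 SE, adjusted p = 0.00901 in edgeR). It did not pass the test in L(3)mbt KD, at 17.2 and 18.2 CPM against 15.8 and 15.02 CPM in the control (edgeR adjusted p = 0.584). CG5167, CG32457 and CG14229 completed the 9 genes, with log2 fold changes of -1.28 ± 0.164 SE (adjusted p = 0.00882 in edgeR), -1.70 ± 0.326 SE (adjusted p = 0.0487 in edgeR) and -1.02 ± 0.127 SE (adjusted p = 0.00852 in edgeR). Without a compared library these calls were lost (edgeR adjusted p from 0.0641 to 0.39), with the exception of Cyp12a5, which stayed called without Lint-1 KD 1. With the stricter low-count filter CG7166 and CG32457 were just above the threshold (0.0519 and 0.05003). CR31451 holds mir-9381.

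The piRNA amplification factors did not separate the knockdowns as a group. Of 12 tested members, 1 (vas) was higher in Lint-O KD, 0 were higher in Lint-1 KD and 11 were not called, with a median log2 fold change of -0.14. The shares over all tested genes were 0.267% higher in Lint-O KD and 0.91% higher in Lint-1 KD, with a median of -0.004. aub, for a PIWI protein of the amplification loop, was at 39.8 and 32.7 CPM in Lint-1 KD and 40.4 and 41.8 CPM in Lint-O KD. The groups did not overlap, but the difference did not pass the test (log2 fold change -0.18 ± 0.165 SE, adjusted p = 0.594 in edgeR). Both groups were above the 2.27 and 3.02 CPM of the control and near the 45.3 and 44.7 CPM of L(3)mbt KD. AGO3, its partner in the loop, was at 5.996 and 7.12 CPM and 5.03 and 7.24 CPM in overlapping groups (log2 fold change 0.10 ± 0.247 SE, adjusted p = 0.869 in edgeR). The Tudor-domain genes spn-E, krimp, tud, qin, CG8920 (tapas), BoYb, tej and CG9925 (Kots) had log2 fold changes between -1.06 and 0.86, none called. For qin, which acts in the same loop, Lint-1 KD gave 9.99 and 5.81 CPM and Lint-O KD 12.9 and 12.4 CPM (log2 fold change -0.68 ± 0.378 SE, adjusted p = 0.384 in edgeR). spn-E, a helicase already expressed in the control, gave 203 and 158 CPM and 149.7 and 188 CPM, again overlapping (log2 fold change 0.10 ± 0.214 SE, adjusted p = 0.843 in edgeR). squ (squash) had a log2 fold change of 0.56 ± 0.191 SE (adjusted p = 0.183 in edgeR). An adjusted p above the threshold does not show that levels were equal, and the SE of these differences ran from 0.165 (aub) to 0.671 (CG9925). The 7 tested factors of dual-strand piRNA clusters and the 19 of the somatic pathway gave no call in the direct comparison.

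**Figure D5:**
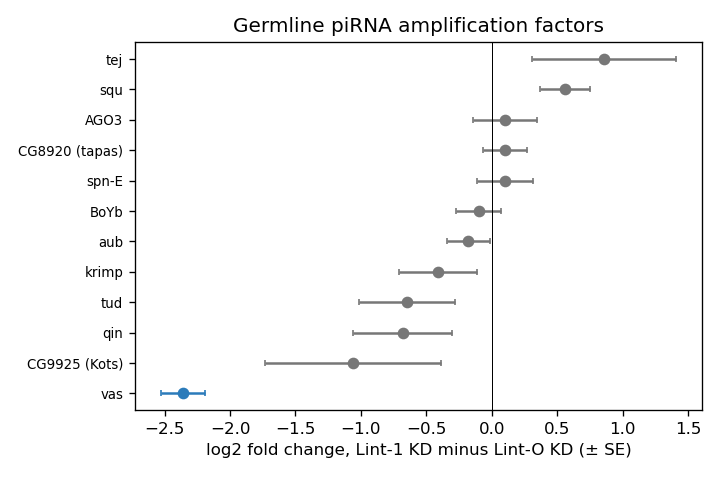
Log2 fold change of Lint-1 KD minus Lint-O KD for the 12 tested piRNA amplification factors, with bars of 1 standard error. The called gene vas is in blue (-2.36); the other 11 are in grey and lie between -1.06 (CG9925) and 0.86 (tej).

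Of 11 tested germline identity genes, 2 were higher in Lint-1 KD and 9 were not called (median log2 fold change 0.147). For this list and the next, the share of all tested genes called higher in Lint-1 KD was 0.91%, with a median of -0.004. nos (nanos), for a translational repressor of the germline, stood at 4.28 and 6.75 CPM in Lint-1 KD, 0.838 and 1.05 CPM in Lint-O KD, 0 and 0.104 CPM in EGFP KD and 3.52 and 4.37 CPM in L(3)mbt KD (log2 fold change 2.54 ± 0.4298 SE, adjusted p = 0.0311 in edgeR). bgcn, whose product works with Bam in germline stem cell differentiation, was at 15.9 and 17.4 CPM and 6.86 and 6.71 CPM (log2 fold change 1.29 ± 0.245 SE, adjusted p = 0.0459 in edgeR). Bam's own gene was at 16.97 and 14.8 CPM and 11.7 and 17.04 CPM in overlapping groups (log2 fold change 0.15 ± 0.236 SE, adjusted p = 0.778 in edgeR). Of 16 tested maternal egg and early embryo genes, 4 were higher in Lint-1 KD and 12 were not called (median 0.359). Of these calls hebe, swa and yl also belong to the list picked from these libraries for weak levels without Lint-O, so their direction is not independent evidence. The remaining call was fs(1)N, an eggshell gene that acts in terminal patterning. It stood at 62.1 and 62.2 CPM in Lint-1 KD, 32.01 and 35.4 CPM in Lint-O KD and 10.2 and 10.5 CPM in EGFP KD (log2 fold change 0.88 ± 0.133 SE, adjusted p = 0.0191 in edgeR). Its neighbour CG11409 was at 7.72 and 6.75 CPM and 2.36 and 2.99 CPM (log2 fold change 1.44 ± 0.254 SE, adjusted p = 0.03502 in edgeR). The germ cell markers did not share a direction here, since nos was higher in Lint-1 KD, vas in Lint-O KD, and aub and bam were not called. The part of germ cell markers in these results was not tested. bgcn overlaps Pym.

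Meiotic genes held calls in both directions. Beside them, 0.91% of all tested genes were called higher in Lint-1 KD and 0.267% higher in Lint-O KD, with a median log2 fold change of -0.004. Of 14 tested recombination genes, 1 was higher in Lint-1 KD and 13 were not called (median log2 fold change 0.161). That gene, hdm (hold'em), which acts in meiotic crossover formation, stood at 20.4 and 21.8 CPM in Lint-1 KD and 5.92 and 5.61 CPM in Lint-O KD (log2 fold change 1.87 ± 0.236 SE, adjusted p = 0.00852 in edgeR). The control held 0.776 and 0.364 CPM and L(3)mbt KD 10.04 and 10.95 CPM. Of 6 tested synaptonemal complex and cohesion genes, CG32088 (sunn), for a factor of sister chromatid cohesion in meiosis, was higher in Lint-1 KD and cona higher in Lint-O KD. sunn was at 52.6 and 40.3 CPM in Lint-1 KD and 14.2 and 18.1 CPM in Lint-O KD (log2 fold change 1.52 ± 0.271 SE, adjusted p = 0.0364 in edgeR). The other synaptonemal genes c(3)G and c(2)M gave -0.55 ± 0.454 SE (adjusted p = 0.553 in edgeR) and -0.31 ± 0.274 SE (adjusted p = 0.585 in edgeR). Of 8 tested genes of the testis meiotic arrest class, tomb was higher in Lint-O KD and 7 were not called (median 0.16). topi, for another subunit of the same testis complex, was at 12.3 and 18.2 CPM in Lint-1 KD and 7.701 and 9.28 CPM in Lint-O KD, where the difference did not pass (log2 fold change 0.84 ± 0.262 SE, adjusted p = 0.157 in edgeR). Without any one of the 4 compared libraries the calls of bgcn, fs(1)N, CG11409, hdm and CG32088 were lost (edgeR adjusted p from 0.0674 to 0.397), with signs kept.

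Of 7 tested ribosomal protein paralogs, RpS5b and RpS19b, both known for expression in the germline, were higher in Lint-1 KD and 5 were not called (median log2 fold change -0.11). For this list and the heat shock genes below, the share of all tested genes called higher in Lint-1 KD was 0.91%, with a median of -0.004. RpS5b (chromosome 3R, 14900432 to 14901563) stood at 890.4 and 934 CPM in Lint-1 KD and 388 and 319 CPM in Lint-O KD, between 168 and 139.8 CPM in the control and 1119 and 1459 CPM in L(3)mbt KD (log2 fold change 1.37 ± 0.163 SE, adjusted p = 0.00785 in edgeR). RpS19b was at 231 and 238 CPM and 118 and 109 CPM, against 66.2 and 58.01 CPM in the control (log2 fold change 1.05 ± 0.1499 SE, adjusted p = 0.0142 in edgeR). RpS10a, another paralog with germline expression that was picked outside the naming rule, gave 0.68 ± 0.205 SE (adjusted p = 0.151 in edgeR). Only 3 of the 7 tested paralogs had a log2 fold change above 0, so the list did not share a direction. Near-identical paralogs can share reads, and their assignment was not given in the sources used here. Of 14 tested heat shock genes 1 was higher in Lint-1 KD and 13 were not called (median 0.356). That gene, the small heat shock protein gene Hsp23, was at 179.7 and 154 CPM in Lint-1 KD, 74.9 and 80.6 CPM in Lint-O KD and 67.3 and 66.8 CPM in EGFP KD (log2 fold change 1.10 ± 0.173 SE, adjusted p = 0.0216 in edgeR). Hsp26 gave 0.77 ± 0.164 SE (adjusted p = 0.0693 in edgeR). Of the 14 heat shock genes, 6 had an unadjusted edgeR p under 0.05, against 17.6% of all tested genes. The list as a set was not tested.

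Somatic and contractile genes gave single calls. Among all tested genes 0.91% were called higher in Lint-1 KD, and the median log2 fold change was -0.004. Of 15 tested follicle cell genes, eya was higher in Lint-1 KD and 14 were not called (median log2 fold change 0.379). eya, for a transcriptional coactivator that limits polar cell fate in the follicle epithelium, stood at 44.6 and 58.4 CPM in Lint-1 KD and 20.2 and 22.7 CPM in Lint-O KD (log2 fold change 1.26 ± 0.171 SE, adjusted p = 0.0107 in edgeR). Lint-O KD was near the 19.5 and 18.9 CPM of the control. so (sine oculis), for the DNA-binding partner of Eya, was named after its value was seen and stood at 59.7 and 67.4 CPM and 32.95 and 38.2 CPM (log2 fold change 0.84 ± 0.141 SE, adjusted p = 0.02999 in edgeR). The follicle cell regulator tj was at 265 and 196 CPM and 240.2 and 297 CPM in overlapping groups (log2 fold change -0.22 ± 0.2204 SE, adjusted p = 0.634 in edgeR). Of 10 tested contractile genes of the muscle type, Mlc2, a myosin regulatory light chain gene, was higher in Lint-1 KD, and 9 were not called (median -0.213). Mlc2 was at 21.2 and 24.6 CPM in Lint-1 KD, 6.55 and 6.55 CPM in Lint-O KD and 3.82 and 4.99 CPM in EGFP KD (log2 fold change 1.80 ± 0.226 SE, adjusted p = 0.00852 in edgeR). In the fits without a compared library the calls of RpS5b, RpS19b, Hsp23, eya, so and Mlc2 were lost (edgeR adjusted p from 0.0737 to 0.334), except that RpS5b, eya and Mlc2 stayed called without Lint-1 KD 1. so overlaps CG11145 and 3 long noncoding RNA genes.

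In some genes the separation came at least in part from a compared knockdown that lay below the control. They were chosen after their values were seen. Aats-glupro (GluProRS, a bifunctional aminoacyl-tRNA synthetase gene) stood at 172 and 149.8 CPM in Lint-1 KD, against 308 and 327 CPM in Lint-O KD and 318 and 340.2 CPM in EGFP KD (log2 fold change -0.98 ± 0.14 SE, adjusted p = 0.0142 in edgeR). Its L(3)mbt KD levels were 275 and 216 CPM, and the fall against the control passed in Lint-1 KD (edgeR adjusted p = 0.00165) but not in L(3)mbt KD (0.0945). Whether these falls differ was not tested. Cyp6d5, a cytochrome P450 gene, was at 62.8 and 40.4 CPM in Lint-1 KD, 109.8 and 102 CPM in Lint-O KD, 102 and 96.7 CPM in L(3)mbt KD and 162 and 158 CPM in EGFP KD (log2 fold change -1.04 ± 0.186 SE, adjusted p = 0.0379 in edgeR). Nelf-E, for a subunit of the negative elongation factor of RNA polymerase II, stood at 13.5 and 13.2 CPM in Lint-1 KD, 25.98 and 27.7 CPM in Lint-O KD and 26.8 and 24.3 CPM in EGFP KD (log2 fold change -1.01 ± 0.156 SE, adjusted p = 0.0216 in edgeR). In both of these genes Lint-O KD stayed closer to the control than Lint-1 KD did. CG9338 was at 104 and 86.3 CPM and 191 and 181 CPM, with the control at 162 and 172 CPM (log2 fold change -0.97 ± 0.1304 SE, adjusted p = 0.0107 in edgeR). In these 4 genes Lint-1 KD was below the control beyond the test's threshold. In CG9338 both Lint-O KD values also lay above both control values. In the other direction, 4 genes besides the target CG2662 that were called higher in Lint-1 KD were called lower in Lint-O KD than in EGFP KD. CG13422 (GNBP-like3) was at 0.838 and 0.682 CPM in Lint-O KD, 4.37 and 4.502 CPM in Lint-1 KD and 3.05 and 2.86 CPM in the control (log2 fold change 2.54 ± 0.329 SE, adjusted p = 0.00901 in edgeR). vari (varicose), for a scaffold of septate junctions, was at 16.7 and 17.5 CPM, 34.5 and 43.4 CPM and 33.7 and 33.01 CPM in the same order (log2 fold change 1.19 ± 0.191 SE, adjusted p = 0.0243 in edgeR). SP2353 and CG33229 had direct log2 fold changes of 1.26 ± 0.205 SE (adjusted p = 0.0256 in edgeR) and 0.94 ± 0.147 SE (adjusted p = 0.0216 in edgeR). SP2353 was at 18.03 and 20.26 CPM in Lint-1 KD and 13.13 and 16.37 CPM in the control. CG33229 was at 54.85 and 64.97 CPM and 50.7 and 47.98 CPM in that order. In all 4 of these genes both Lint-1 KD values lay above both control values, so a rise was part of the separation. Without a compared library these 8 calls were lost (edgeR adjusted p from 0.0685 to 0.334), except that CG9338 and Cyp6d5 stayed called without Lint-1 KD 1. Aats-glupro overlaps the antisense gene asRNA:CR46092, Cyp6d5 overlaps rdx, Nelf-E overlaps CG43078, and vari overlaps Pomp and a long noncoding RNA gene.

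Some further genes called higher in Lint-1 KD were also chosen after their values were seen. CDase, for a neutral ceramidase that breaks down ceramide, was at 100.4 and 111 CPM in Lint-1 KD, 32.6 and 37.1 CPM in Lint-O KD, 27.7 and 29.4 CPM in EGFP KD and 79.8 and 94.99 CPM in L(3)mbt KD (log2 fold change 1.60 ± 0.144 SE, adjusted p = 0.00148 in edgeR). CG10702 was at 31.8 and 34.3 CPM in Lint-1 KD and 10.5 and 11.01 CPM in Lint-O KD, which lay between the 11.5 and 9.98 CPM of the control (log2 fold change 1.62 ± 0.168 SE, adjusted p = 0.00375 in edgeR). CG32506 (tbc) gave 33.4 and 34.3 CPM and 10.6 and 12.5 CPM, with the control at 10.97 and 11.5 CPM (log2 fold change 1.55 ± 0.164 SE, adjusted p = 0.00394 in edgeR). In these 3 genes the level of Lint-O KD did not pass the test against the control. KCNQ, a voltage-gated potassium channel gene, gave 22.7 and 30.6 CPM and 9.901 and 9.804 CPM, with the control at 10.4 and 9.72 CPM (log2 fold change 1.43 ± 0.194 SE, adjusted p = 0.0107 in edgeR). numb, for an inhibitor of Notch signalling handed to one daughter in asymmetric divisions, was at 9.39 and 11.05 CPM in Lint-1 KD and 2.72 and 2.52 CPM in Lint-O KD (log2 fold change 1.96 ± 0.329 SE, adjusted p = 0.02999 in edgeR), against 2.66 and 2.13 CPM in the control. shf (shifted), for a secreted protein needed for Hedgehog spread, was at 6.93 and 8.17 CPM and 1.89 and 1.89 CPM, with the control at 0.942 and 0.936 CPM (log2 fold change 2.00 ± 0.247 SE, adjusted p = 0.00852 in edgeR). For KCNQ, numb and shf, too, Lint-O KD did not pass against the control, although both Lint-O KD values of shf lay above the control's. Grip, for a PDZ-domain protein, was at 27.8 and 33.6 CPM and 8.22 and 8.86 CPM, with the control at 4.82 and 4.21 CPM (log2 fold change 1.84 ± 0.184 SE, adjusted p = 0.00316 in edgeR). Unlike the preceding genes it passed the test against the control in Lint-O KD too (edgeR adjusted p = 0.0244). CG34290 had no read in Lint-O KD or EGFP KD and 109 reads in Lint-1 KD, which makes it at least 17.25-fold higher against a floor of 3 counts per library (edgeR adjusted p = 0.0191). Without Lint-O KD 1 all 8 of these calls were lost (edgeR adjusted p from 0.0608 to 0.318). Without Lint-O KD 2 only CDase stayed called (0.0583 to 0.215 for the others), and without Lint-1 KD 1 or Lint-1 KD 2, 6 and 4 stayed. KCNQ overlaps CG18011, mlt and an antisense gene, numb overlaps CG33723, CG10702 overlaps CG17343, shf overlaps Coq7 and CG34290 overlaps CG6356.

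The other 40 genes higher in Lint-1 KD had log2 fold changes of 0.61 to 3.07 (edgeR adjusted p from 0.00785 to 0.0497), and the other 5 higher in Lint-O KD differed by 0.58 to 3.02 on the log2 scale (0.0112 to 0.049). Of the 39 gene lists examined, 26 had no called member, among them the Notch, Wnt and Hedgehog, Hippo, TGF-beta, JAK/STAT and EGFR pathways, the Polycomb and trithorax, chromatin insulator and replication genes, and the innate immune and ecdysone genes. The lists are short and do not hold every gene of a pathway, and numb and shf, called above, are in none of them. Nor do they hold GNBP3 or CG13422 (GNBP-like3), both called higher in Lint-1 KD. Their log2 fold changes were 0.61 (adjusted p = 0.0448 in edgeR) and 2.54 (adjusted p = 0.00901 in edgeR). The 26 lists held 310 distinct tested members, of which 38 (12.3%) had an unadjusted edgeR p under 0.05 and 11 (3.55%) were called by DESeq2. Over all tested genes these shares were 17.6% and 3.57%. The medians of these lists ran from -0.228 (Polycomb and trithorax genes) to 0.655 (6 GMC oxidoreductase genes), against -0.004 over all tested genes.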

How the data were processed

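RNA was taken from cultured ovarian somatic cells after 48 hours of RNAi, and polyadenylated RNA was made into stranded libraries, per the labels' protocols. Raw counts of reads per gene were deposited. HISAT2, HTSeq, edgeR and the build dm6 are named in the submitters' processing notes, without roles or versions. Annotation release and strand setting were not given in the sources used here. Of 16732 entries, 16727 were genes and 5 were special lines of the counter (3 at 0), left out of library sizes and of all tests. Per library, 14.96% to 18.51% of reads had no gene and 1.05% to 1.13% were ambiguous.

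Genes were tested with edgeR 4.0.16 in R 4.3.3 from the counts as deposited. Genes were filtered with filterByExpr by group and scaled by TMM (factors 0.948 to 1.056). A single glmQLFit with 4 residual degrees of freedom took the group of each of the 8 RNA libraries, and contrasts were tested with glmQLFTest and Benjamini-Hochberg adjustment over 8244 genes. The biological coefficient of variation was 15.43%. The SE is the absolute log2 fold change divided by the square root of F. The 2 libraries of each group gave a chi-square per degree of freedom of 21.41 to 50.81, above sampling noise, and were kept as separate libraries. Counting intervals (95%) and floors (3 counts) cover counting error only.

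Positions and current symbols came from a RefSeq gene table of that assembly, in which 12512 symbols were current and 3996 were synonyms, while 219, nos and Sas among them, had no single match. No sequences were used here. The procedure was tested on simulated counts.

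Named genes were the 3 RNAi targets, in each direction the 12 largest differences among called genes whose groups do not overlap and whose higher group averaged 5 CPM or more, the 5 smallest adjusted p-values in each direction, up to 4 called members of each of 39 gene lists, every tested member of 3 of these lists (piRNA amplification factors and the lists of genes weak without Lint-O or Lint-1), and runs of neighbouring called genes. Genes said to be chosen after their values were seen lie outside the rule. The uncalled genes CoRest, c(3)G, c(2)M, topi, RpS10a and Hsp26 also lie outside it and were picked by no stated rule. bam and tj were given as cell type markers. The comparison, the lists and the rule were chosen with earlier results of these data known. The alternatives were DESeq2 size factors, upper-quartile scaling, DESeq2 1.42.0 with its Wald test, a fit without low-count filter, a stricter filter (at least 1 CPM in 2 libraries and 50 reads in total), a fit of the 4 compared libraries, the replicate number as a block, removal of a lowess trend on log2 gene span (span 0.3), a 2-fold minimum and each compared library left out in turn. Leaving out the other libraries and a crossed block were chosen after seeing the data.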

Additional observations from a re-analysis of the deposited data

How the results depend on the processing

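The main counts were 75 genes higher in Lint-1 KD and 22 higher in Lint-O KD, of which 59 and 10 were called higher in L(3)mbt KD than in EGFP KD. Counts below follow this order. Scaling by DESeq2 size factors or upper quartiles, the stricter filter and the 2-fold minimum kept the counts of the direct comparison within 1.5 times of these. The DESeq2 Wald test gave 200, 94, 117 and 22, and no low-count filter, with 11551 genes tested, gave 244, 146, 145 and 29. A fit of the 4 compared libraries alone gave 237 and 174. All 97 genes were also called under these 3 settings. Removing the gene-span trend gave 118 and 48, and 70 of the 75 and 21 of the 22 stayed called. Leaving out a library gave 3 to 122 genes higher in Lint-1 KD, 2 to 51 higher in Lint-O KD, and 2 to 77 and 1 to 14 of these called higher in L(3)mbt KD, with the lowest counts without Lint-O KD 1 (3 and 2) and the highest without L(3)mbt KD 1 (122 and 51). The cause was not tested. Among named genes, those called kept their sign under the alternatives run, and spn-E, AGO3, CG8920 and BoYb, which were not called, changed sign without a single compared library (-0.16 to 0.03).

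Deviations of same-numbered libraries from their group means correlated positively for L(3)mbt KD with Lint-1 KD (0.329) and for EGFP KD with Lint-O KD (0.2). The other pairs of groups gave -0.345 to -0.164, with -0.164 for Lint-1 KD with Lint-O KD. The numbers therefore do not pair the samples across all groups. What lies behind the shared deviations was not tested, and the main fit has no term for them. With the replicate block 24 and 9 genes were called, of which 21 and 3 were called higher in L(3)mbt KD. This setting kept 24 of the 75 and 9 of the 22 main calls. Of the 47 named genes 14 lost their call, while l(3)mbt and the piRNA amplification factors other than vas had no call to lose. A crossed replicate block, with numbers swapped in L(3)mbt KD and Lint-1 KD after seeing those correlations, gave 788, 961, 399 and 78. Depth limits genes with 3 reads or fewer in a group, such as yl and CG34290 in Lint-O KD, whose size of change is only bounded.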
